A study of Rattus norvegicus with 448 samples.

Results

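Genes that mark opposite ends of the liver lobule were followed across rat livers: Cps1 (ENSRNOG00000013704) and Arg1 (ENSRNOG00000013304) on the periportal side, and Glul (ENSRNOG00000049560) and Cyp2e1 (ENSRNOG00000012458) on the pericentral side. They were chosen by Ensembl ID for their known position in the lobule, and all 4 were present among the 16796 genes of the expression table and passed the filter on low values. The study sequenced total liver RNA of outbred rats at 17 weeks of age, in a project that mapped loci for metabolic traits and the genes with nearby genetic control of expression. The labels put every liver library in 1 group, with no treatment, sex or genotype, and 430 libraries were matched to a column of values by an identifier shared with adipose samples. Nothing in the labels says that each library is a separate animal, so the p-values below measure the spread between libraries. Depth, rebuilt from the values as whole reads and counted over the genes of the expression table alone, had a median of 24586778 reads per library. It ran from 186442 to 61322736 and under 10000000 reads in 25 libraries.

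The liver lobule is a unit in which blood flows from the portal tract towards a central vein, and hepatocytes along that path do different work. Periportal hepatocytes take up most of the ammonia and turn it into urea: Cps1, carbamoyl-phosphate synthetase, makes the entry step in the mitochondrion, and Arg1, arginase, makes the last step, in which arginine is split into urea and ornithine. A thin layer of pericentral hepatocytes catches the remaining ammonia through Glul, glutamine synthetase, and the wider pericentral region expresses Cyp2e1, a cytochrome P450 that oxidises ethanol, acetone and many solvents. Pericentral expression of Glul and Cyp2e1 is known to depend on Wnt and beta-catenin signalling. The zone names used here are this background. Whole tissue RNA holds no position, so the zones could not be checked in these data, and in such RNA fewer cells of a type and less RNA per cell cannot be told apart.

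The 250 bases before the annotated starts are shown because members of the pericentral pair, Glul and Cyp2e1, can be set side by side in them, and Cps1 beside these. They come from RefSeq on the build GRCr8, where 3 of the 4 members matched, Glul with 2 starts, and Arg1 did not. All are written 5′ to 3′, and capitals mark matches to a searched motif.
Cps1, chr9:76063613-76063862, plus strand: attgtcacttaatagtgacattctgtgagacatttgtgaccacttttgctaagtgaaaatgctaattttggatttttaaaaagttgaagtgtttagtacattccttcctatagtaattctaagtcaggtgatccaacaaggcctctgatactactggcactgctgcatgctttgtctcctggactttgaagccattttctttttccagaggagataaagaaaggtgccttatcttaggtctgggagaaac
Glul, upstream start, chr13:68519250-68519499, plus strand: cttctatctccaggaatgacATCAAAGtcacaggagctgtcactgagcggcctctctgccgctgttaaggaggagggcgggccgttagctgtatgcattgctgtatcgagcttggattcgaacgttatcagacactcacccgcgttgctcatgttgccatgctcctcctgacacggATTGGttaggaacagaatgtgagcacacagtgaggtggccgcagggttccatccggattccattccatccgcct
Glul, downstream start, chr13:68575816-68576065, plus strand: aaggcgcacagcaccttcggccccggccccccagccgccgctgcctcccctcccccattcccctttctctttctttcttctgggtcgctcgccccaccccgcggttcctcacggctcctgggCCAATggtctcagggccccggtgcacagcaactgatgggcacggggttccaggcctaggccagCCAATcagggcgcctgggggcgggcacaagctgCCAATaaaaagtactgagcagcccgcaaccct
Cyp2e1, chr1:205269717-205269966, plus strand: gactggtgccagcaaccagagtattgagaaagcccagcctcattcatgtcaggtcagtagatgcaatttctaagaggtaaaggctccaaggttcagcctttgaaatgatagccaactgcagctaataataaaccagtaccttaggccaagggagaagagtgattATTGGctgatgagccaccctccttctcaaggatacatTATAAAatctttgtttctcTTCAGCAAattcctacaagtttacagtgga
The motifs were the TATA box (TATAAA), the CCAAT box (CCAAT), C/EBP (TTGCNNAA), TCF/LEF (CTTTGAT), CRE (TGACGTCA) and the longer GRE, HNF4 and HNF1 motifs, each on both strands and in these 250 bases alone. The downstream Glul start had 3 CCAAT matches, and the upstream start had a CCAAT match and a TCF/LEF match. Before the Cyp2e1 start lay a TATA match, a CCAAT match and a C/EBP match, none of them overlapping another. The Cps1 window held no match, which says only that these letters are not in it. Among all 33469 promoters in the table, 34% held a CCAAT match, 12.9% a TATA match, 9.22% a C/EBP match and 3.15% a TCF/LEF match in the same window. GC content was 38% for Cps1 and 42.8% for Cyp2e1, under the lower quartile of 44% over all promoters. The Glul starts had 54.4% and 67.2%.

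All 4 genes were abundant in every library, and their order was nearly always the same. The deposited values carry no unit in their header and were taken as FPKM, a read level per length of the gene with a size factor for each library. On that reading levels can be compared between genes. Cyp2e1 stood highest with 1931 ± 390.8 FPKM (SD, n = 430), above 99.8% of the 12234 genes tested. Its lowest library had 980.0 FPKM (LSW_158), the median was 1900.0 and the highest had 3801 (LSW_166). The highest was also 1 of the shallowest libraries, with 246927 reads. Arg1 followed with 838 ± 193.4 FPKM, from 349.2 (LSW_144) through a median of 802 to 1629.9 (LSW_54). Cps1 had 513 ± 153.3 FPKM, from 134.8 (LSW_225) through 503 to 1033 (LSW_383). The lowest Cps1 value again came from a shallow library, of 1951511 reads. Glul was the least abundant at 173.96 ± 57.1 FPKM, from 42.04 (LSW_274) through 170.3 to 345.7 (LSW_67), which was still above 95% of genes tested. RefSeq lists 2 Glul pseudogenes, and the handling of reads that match several places is not given in the sources used here, so the level of Glul carries that uncertainty.

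The order Cyp2e1, Arg1, Cps1, Glul held in 410 of 430 libraries. Cyp2e1 exceeded the other 3 members in every library. Cps1 exceeded Arg1 in 19 libraries, and Glul exceeded Cps1 in 1, LSW_63. The neighbours in this order thus differed by more than their spread in most livers: on the log2(FPKM + 1) scale, Arg1 minus Cyp2e1 had a mean of -1.21 (SD of the difference 0.36), Cps1 minus Arg1 of -0.74 (SD 0.52) and Cps1 minus Glul of 1.57 (SD 0.49). The closest of these steps, from Cps1 to Arg1, was the one that turned most often.

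**Figure D1:**
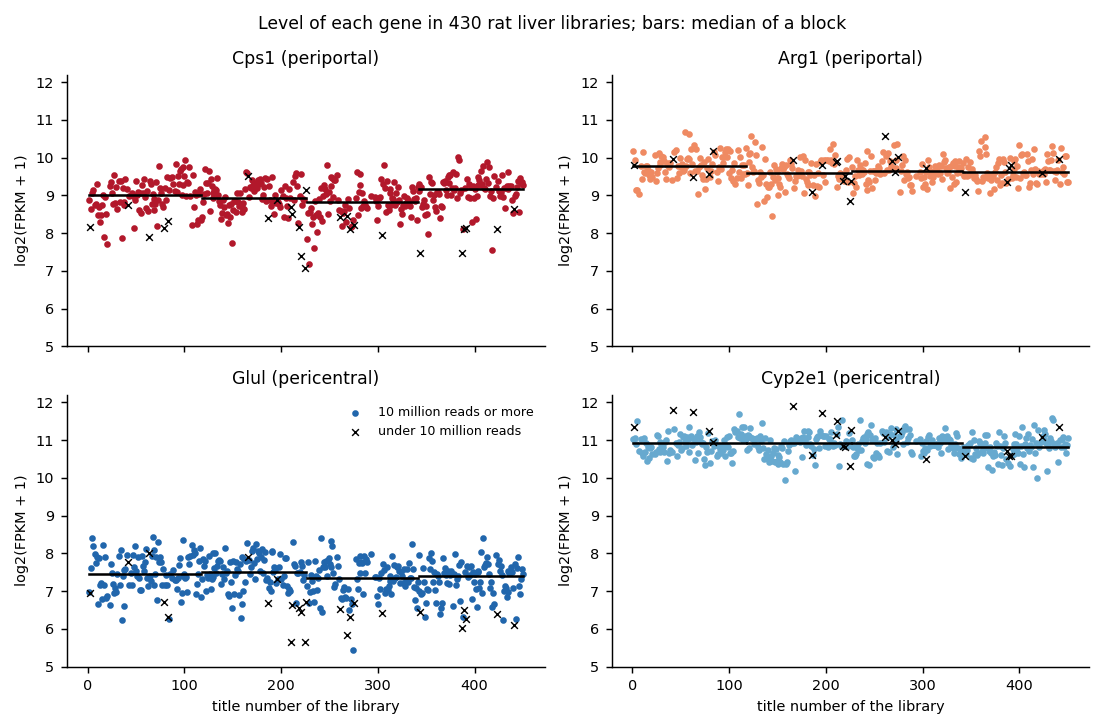
Level of each member, as log2(FPKM + 1), against the title number of the library, which is the running number in its label. Crosses are the 25 libraries under 10000000 reads, points the others, and bars the median of 4 consecutive blocks of libraries. Many of the crosses lie low for Cps1 and Glul, and several lie high for Cyp2e1.

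The partners within a zone did not vary by the same amount. Cps1 and Glul, the ammonia-capturing enzymes, were the more variable genes, with SDs of 0.46 and 0.50 on the log2(FPKM + 1) scale. Arg1 and Cyp2e1 had SDs of 0.32 and 0.29. Over the 12234 genes tested the median SD was 0.38, so Glul was more variable than 72.7% of genes and Cps1 than 67.2%, and Arg1 exceeded 35.9% and Cyp2e1 24.3%. Between the 5th and 95th percentile of libraries, Glul ran from 87.8 to 273.03 FPKM, a 3.11-fold range, and Cps1 from 280.2 to 768 FPKM, a 2.74-fold range. The same range was 2.09-fold for Arg1 and 1.93-fold for Cyp2e1. Against genes of like mean level, by a smoothed curve of SD on level, Glul lay 0.12 above the curve and Cps1 0.07 above it. Arg1 was 0.08 and Cyp2e1 0.13 below it, given as differences of SD. Counting noise of the rebuilt reads made up at most 0.233% of the variance of any member, the share for Glul.

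Shallow libraries had low Cps1 and Glul. In the 25 libraries under 10000000 reads, Cps1 had a median of 287.7 FPKM against 509.9 in the others, and 23 of the 25 lay below that second median. Glul had a median of 89.05 FPKM against 173.45, with 22 of 25 below. Arg1 and Cyp2e1 did not share this: their medians were 849 and 2162 FPKM in the shallow libraries and 798 and 1895 in the others. The ranges of both classes of libraries overlapped for each member.

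Across all libraries, Cps1 and Glul rose with depth and Cyp2e1 and Arg1 fell, in the fit of each gene tested on log10 reads with limma. Most genes did one or the other, 87.4% of those tested, so a call here does not set the members apart. Cps1 had a Pearson r of 0.334 with log10 reads (Spearman rho 0.282, adjusted p = 1.84e-12) and Glul an r of 0.374 (rho 0.324, adjusted p = 1.82e-15). For Cyp2e1 r was -0.344 (rho -0.432, adjusted p = 4.12e-13) and for Arg1 -0.160 (rho -0.392, adjusted p = 0.00105). Permutation tests with 100000 resamples, two-sided, gave p = 1e-05 for each r, the smallest they can give, except for Arg1 with 0.00094; 4 relations were computed. Without the 2 libraries farthest from the median depth, r was 0.443 for Cps1, 0.446 for Glul, -0.309 for Cyp2e1 and -0.197 for Arg1. Leaving out the 22 libraries in which the fewest genes were above 0 gave r of 0.297 for Cps1 and 0.268 for Glul. For Cyp2e1 r was then -0.465 and for Arg1 -0.414. Split by title number into 4 consecutive blocks, the sign was kept by each member, with r from 0.173 to 0.5004 for Cps1, from 0.193 to 0.563 for Glul, from -0.545 to -0.212 for Cyp2e1 and from -0.372 to -0.083 for Arg1. The falling sign of Cyp2e1 and Arg1 depended on the scaling. With upper quartile rescaling r was -0.255 for Cyp2e1 (adjusted p = 1.25e-07, limma) and -0.089 for Arg1, which no longer passed (adjusted p = 0.0735), and with equal totals per library r turned to 0.281 and 0.378.

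Cps1 and Glul were also tied to the pattern that dominates this data set. The first principal component of all genes tested, computed without the 4 members, held 45.7% of the variance between libraries, and is oriented here so that it rises with depth (r = 0.599 with log10 reads). Its correlation with Cps1 was 0.779 (rho 0.749), which amounts to 60.7% of the variance of that gene, and 0.637 (rho 0.560) with Glul, or 40.5%. Many genes shared this tie: r was above that of 82.7% of genes tested for Cps1 and of 72.7% for Glul. Arg1 had an r of -0.263 (rho -0.341) and Cyp2e1 of -0.170 (rho -0.199), which amounts to 6.93% and 2.89% of their variance. An increase of 1 SD in the component went with a 1.28-fold higher Cps1 and a 1.25-fold higher Glul. In the 4 blocks r ranged from 0.666 to 0.834 for Cps1 and from 0.484 to 0.711 for Glul, so the tie was present along the whole series. With the component taken out, the SDs fell to 0.29 for Cps1, 0.39 for Glul and 0.31 for Arg1, and Cyp2e1 kept 0.28.

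The component goes with gene length as well as with depth. Over the genes tested, which are not independent replicates, the correlation of a gene with the component had a Spearman rho of 0.520 with the gene length rebuilt from the values. Cps1 was the longest member at 5823 bases, against a median of 2109 bases for the genes tested. Glul had 2485, Cyp2e1 2329 and Arg1 1498 bases. Library totals of FPKM moved with the component too (r = -0.867). The part of length, depth and totals in the levels of Cps1 and Glul was not tested. Rescaled to equal totals, Arg1 and Cyp2e1 also rose with the component, with r of 0.303 and 0.441.

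As deposited, the members did not pair by zone. The strongest relation was that of Cps1 with Glul, which crosses the lobule: r was 0.483 (95% interval 0.407 to 0.552, rho 0.425, adjusted p = 4.22e-26, limma over all genes). Arg1 and Cyp2e1, again from opposite zones, had an r of 0.316 (0.228 to 0.398, rho 0.314, adjusted p = 1.44e-09). Within the zones r was lower, 0.169 for Cps1 with Arg1 (0.076 to 0.260, rho 0.130, adjusted p = 0.0008) and 0.239 for Glul with Cyp2e1 (0.148 to 0.326, rho 0.245, adjusted p = 6.95e-06). Arg1 fell where Glul was high, with r = -0.222 (-0.310 to -0.130, rho -0.226, adjusted p = 8.89e-06), a sign that turned to 0.224 with equal totals per library. Cps1 with Cyp2e1 missed the threshold at r = 0.094 (-0.001 to 0.187, rho 0.062, adjusted p = 0.089). The order of the pairs moved with the processing. With equal totals per library the zone pairs had r of 0.529 (Cps1 with Arg1) and 0.616 (Glul with Cyp2e1), above Arg1 with Cyp2e1 at 0.379 and below Cps1 with Glul at 0.691. With log10 reads as a covariate Glul with Cyp2e1 was the strongest pair at 0.422, next to Cps1 with Glul at 0.410, and Cps1 with Arg1 had 0.240. Each adjusted p is the larger of the values from the fit on either gene, and the intervals are those of a Pearson r over independent libraries. The fits treat libraries as independent, and libraries that share an identifier were alike for many genes, which can make these p-values too small.

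Relations with the members were common among all genes. A relation at an adjusted p under 0.05 was found with Cps1 for 89.9% of the genes tested, with Glul for 87%, with Arg1 for 70.4% and with Cyp2e1 for 51.9%. Positive relations made up 50.8%, 51.8%, 28.1% and 15.6% in that order, and negative ones 39.1%, 35.2%, 42.4% and 36.4%. Among the 12233 other genes ordered by r with Cps1, Glul had rank 3317 and Arg1 rank 5703. By r with Glul, Cyp2e1 had rank 5047. In the reverse order, by r with Cyp2e1, Glul stood above 97.4% of genes and Arg1 above 99.1%. Cyp2e1 had rank 452 by r with Arg1. Permutation tests over libraries (100000 resamples, two-sided, 6 pairs) gave p = 1e-05, the smallest possible, for Cps1 with Glul and Arg1 with Cyp2e1, 2e-05 for Glul with Cyp2e1 and Arg1 with Glul, 0.00039 for Cps1 with Arg1 and 0.0517 for Cps1 with Cyp2e1. Without the 2 libraries farthest from the median of the gene named first, r was 0.463 for Cps1 with Glul, 0.310 for Arg1 with Cyp2e1, 0.143 for Cps1 with Arg1, 0.223 for Glul with Cyp2e1, -0.220 for Arg1 with Glul and 0.068 for Cps1 with Cyp2e1.

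The blocks by title number bear on the weaker pairs. Cps1 with Glul had r of 0.258, 0.524, 0.58 and 0.647 in the blocks in order, and Arg1 with Cyp2e1 0.133, 0.457, 0.293 and 0.355. For Cps1 with Arg1 they were 0.237, 0.333, -0.065 and 0.115, so that relation did not hold in the third block. Glul with Cyp2e1 ranged from 0.142 to 0.284 and Arg1 with Glul from -0.441 to -0.024. Cps1 with Cyp2e1 was -0.245 in the block with the lowest title numbers and 0.139 to 0.344 in the others.

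**Figure D2:**
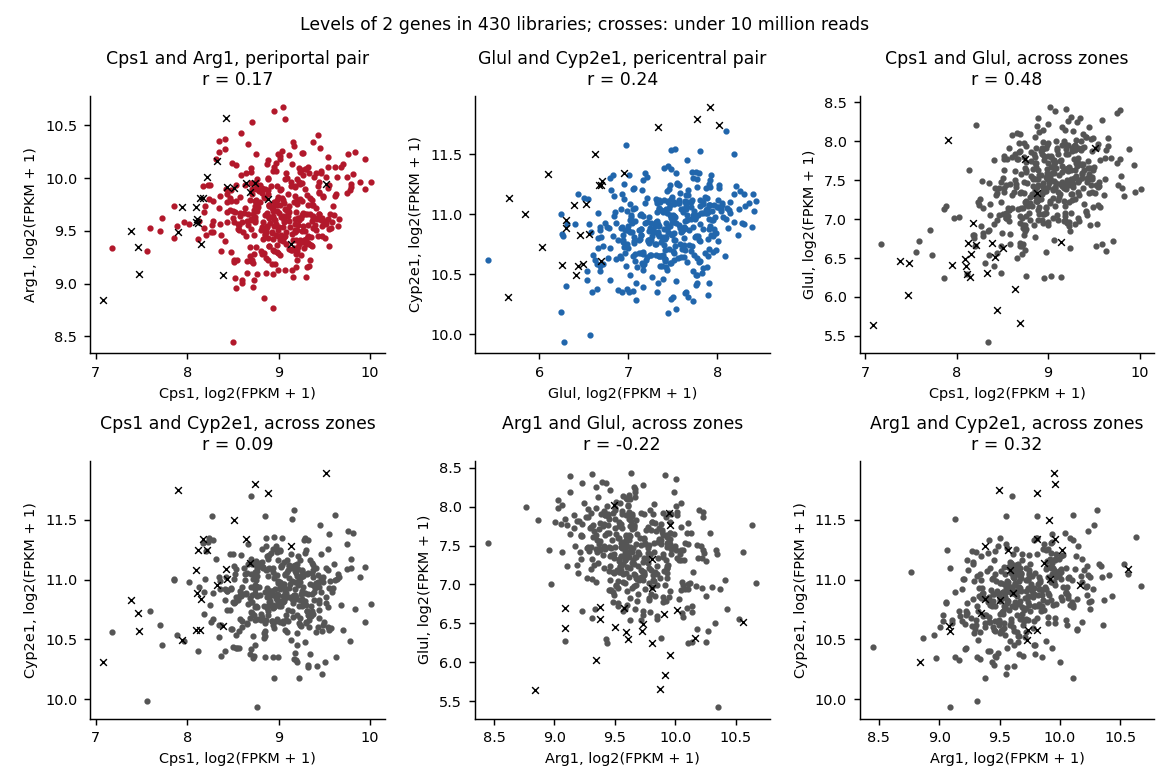
Levels of the members against each other, as log2(FPKM + 1), 1 panel per pair and 1 point per library. Crosses are the 25 libraries under 10000000 reads. The tightest cloud is that of Cps1 with Glul (r = 0.483), which belong to opposite zones.

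With the first component held constant, the zone pairs had the strongest relations over all libraries, though not in each block of them. Cps1 and Arg1, the first and last enzymes of the urea pathway named here, then had a partial r of 0.619 (95% interval 0.557 to 0.674, rho 0.619). Arg1 rose by 0.66 (SE 0.04) on the log2 scale per unit of log2 Cps1 (adjusted p = 1.99e-43, limma). Glul and Cyp2e1 had a partial r of 0.457 (0.379 to 0.529, rho 0.440), and Cyp2e1 rose by 0.33 (SE 0.03) per unit of log2 Glul (adjusted p = 3.47e-20). The link of Cps1 with Glul, the strongest before, was at -0.027 (-0.121 to 0.068, rho -0.015, adjusted p = 0.698), and Arg1 with Glul at -0.073 (-0.167 to 0.022, rho -0.068, adjusted p = 0.237). Those intervals leave room for weak links of either sign.

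Cyp2e1 did not keep to its zone. With the component held it rose with Cps1 at a partial r of 0.366 (0.281 to 0.445, rho 0.311, adjusted p = 5.61e-13) and with Arg1 at 0.285 (0.195 to 0.370, rho 0.261, adjusted p = 5.33e-08). Glul was thus the member that related to 1 of the other 3, and Cyp2e1 related to all 3. Permutation of residuals gave p = 1e-05 for each of the 4 pairs that passed, the smallest possible, and 0.577 and 0.13 for Cps1 and Arg1 with Glul (6 pairs, 100000 resamples, two-sided).

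In this fit the zone partners stood near the top of all genes. Arg1 had rank 4 of 12233 genes by partial r with Cps1, and Cps1 rank 6 by partial r with Arg1. Cyp2e1 had rank 4 by partial r with Glul, and Glul rank 22 with Cyp2e1. For the pairs across zones the ranks ran from 70 (Cps1 with Cyp2e1, in the order of Cyp2e1) to 8622. A positive relation at an adjusted p under 0.05 was held by 17.3% of genes with Cps1, 23.6% with Arg1, 15.5% with Glul and 12.4% with Cyp2e1, and in either direction by 48.3%, 57.5%, 33% and 37.7%. Negative relations made up 31%, 34%, 17.5% and 25.3%. The ranks are a description of this list of genes, not a test.

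Counted by library, Cps1 and Arg1 lay on the same side of their medians in 51.6% of the 430 livers as deposited and in 72.6% with the component held. For Glul and Cyp2e1 the shares were 61.9% and 67.4%. Cps1 and Glul were on the same side in 66.5% as deposited and in 50.7% with the component held. By this count the change was a gain for the periportal pair, a smaller gain for the pericentral pair and a loss for Cps1 with Glul. The r of the pericentral pair moved more, from 0.239 as deposited to 0.457 with the component held.

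Both zone pairs kept their relation in every block with the component held. Partial r for Cps1 with Arg1 was 0.677, 0.617, 0.593 and 0.687 over the 4 blocks, and for Glul with Cyp2e1 0.49999, 0.519, 0.322 and 0.387. Without the 2 libraries farthest from the median of the gene named first they were 0.615 and 0.439. Leaving out 22 libraries in which the fewest genes were above 0 gave 0.713 and 0.469. The pairs across zones were less even: Cps1 with Cyp2e1 had -0.028, 0.617, 0.431 and 0.528, and Cps1 with Glul -0.272, 0.164, -0.035 and 0.184. Cps1 with Cyp2e1 was thus near 0 in the block with the lowest title numbers. In each later block, however, its partial r was above that of Glul with Cyp2e1. In the second block it equalled that of Cps1 with Arg1 to 3 digits, at 0.617. Arg1 with Cyp2e1 ranged from 0.087 to 0.440.

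**Figure D3:**
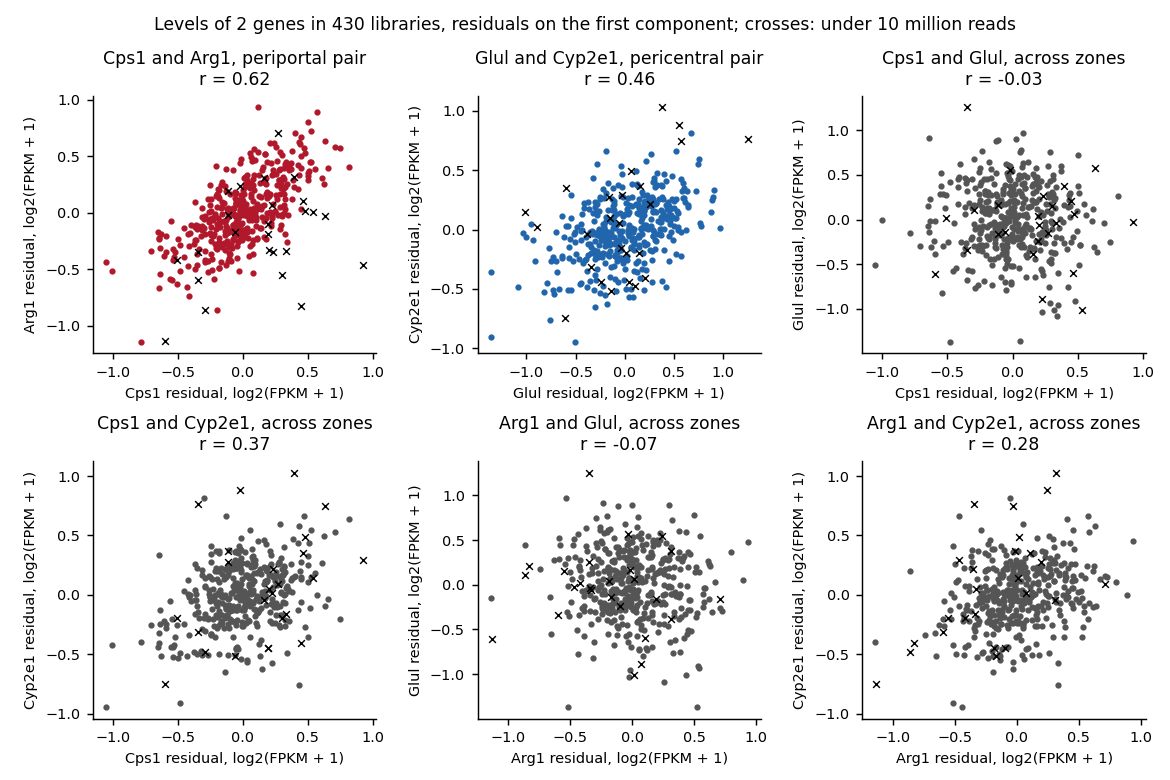
The same pairs after the first principal component was taken out of each gene, as residuals of log2(FPKM + 1). The clouds of Cps1 with Arg1 (partial r = 0.619) and Glul with Cyp2e1 (0.457) are now the tightest, and that of Cps1 with Glul is round (-0.027).

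**Figure D4:**
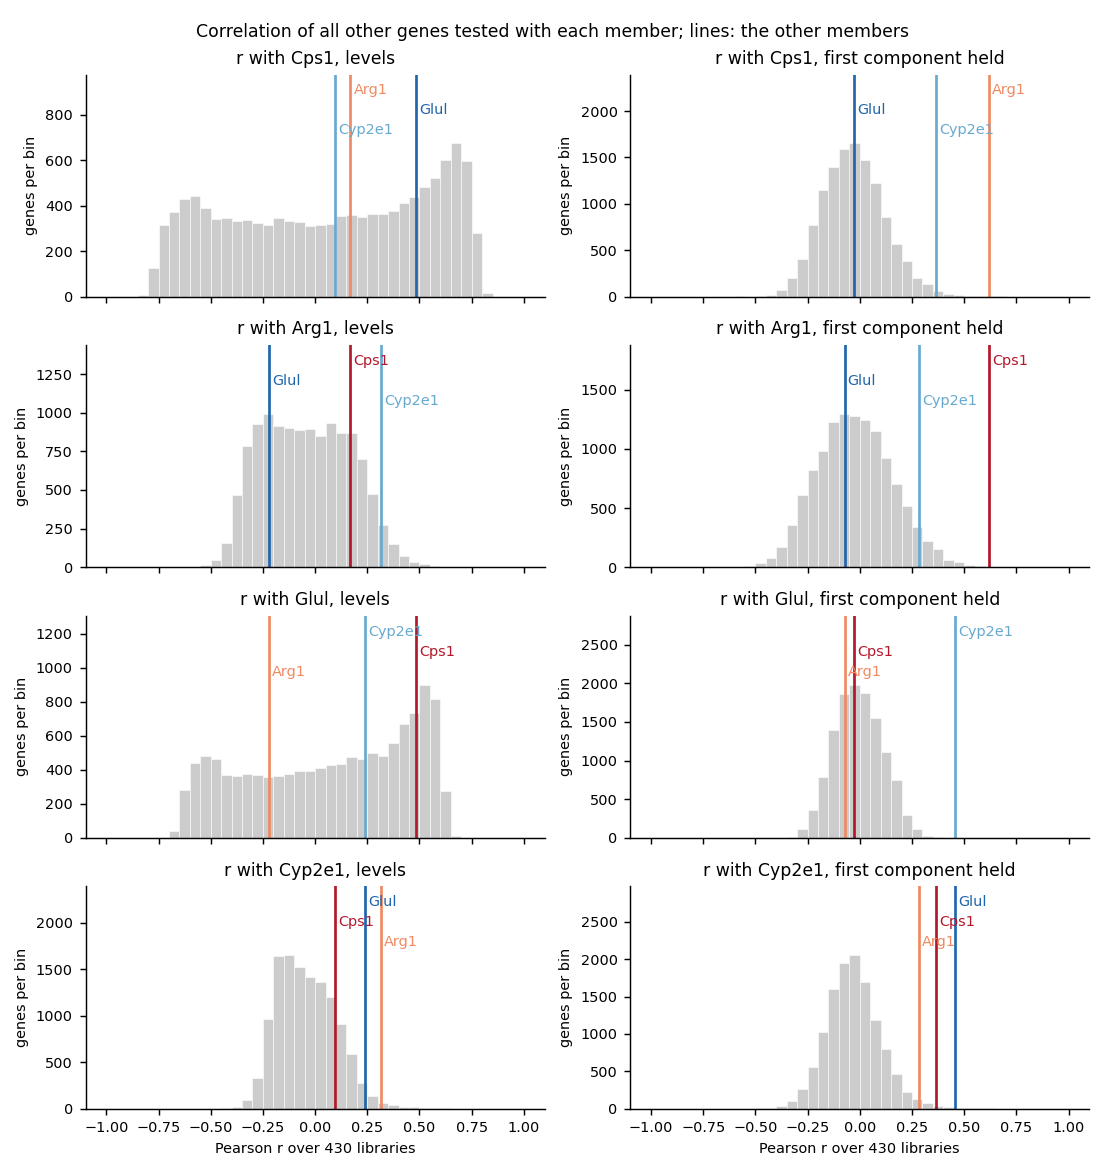
Number of genes in bins of 0.05 of r with each member, over 12233 genes and 430 libraries, as deposited (left) and with the first component held (right). Coloured lines mark the other members: on the right, Arg1 lies at the far end for Cps1, and Cyp2e1 at the far end for Glul.

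Single livers at the extremes followed the zone pairs in part. LSW_54 had the highest sum of the Cps1 and Arg1 residuals, with 1629.9 FPKM of Arg1 and 529 of Cps1, and its Glul and Cyp2e1 residuals were near 0, at 0.05 and 0.00. LSW_144 had the lowest such sum, with 349.2 FPKM of Arg1 and 362.4 of Cps1, and its Glul of 184.4 FPKM was close to the median. Its Cyp2e1, however, was low at 1389 FPKM, a residual of -0.40. At the pericentral end LSW_63 was highest, with 258.02 FPKM of Glul and 3435 of Cyp2e1, beside a low Cps1 of 238.6 FPKM. That library had 7978343 reads. LSW_158 was lowest, with 76.4 FPKM of Glul and 980.0 of Cyp2e1 at 33615262 reads. All 4 of its residuals were below 0, from -1.37 for Glul to -0.48 for Cps1. These livers were picked as the extremes of their sums after the values were seen.

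Ratios of members within a library, which are nearly free of its scaling, gave a mixed picture. The log2 ratio of Arg1 to Cyp2e1 had the smallest SD, 0.36, and that of Arg1 to Glul the widest, 0.66. The remaining ratios had SDs from 0.49 to 0.52, both zone pairs among them. Against every gene tested, Cps1 had a median SD of the ratio of 0.56, Glul of 0.59, Arg1 of 0.51 and Cyp2e1 of 0.48. Of the ratios of Arg1 to all genes 4.16% had a smaller SD than its ratio to Cyp2e1, and of those of Cyp2e1 6.58%. Cps1 to Arg1 lay in the middle, with 41.6% of the ratios of Cps1 and 52.98% of those of Arg1 smaller. The Cps1 to Glul ratio, urea entry over glutamine synthesis, ran from -0.11 (LSW_63) through 1.55 to 3.03 (LSW_378).

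Livers whose identifiers share the first part had like levels of Arg1 and Cyp2e1. There were 92 such identifiers, with 110 pairs of libraries, and the labels do not say what the shared part means. The ICC (intraclass correlation, or how much of the variance is found between identifiers) was 0.461 for Cyp2e1 (adjusted p = 3.79e-05, moderated F test of limma) and 0.377 for Arg1 (adjusted p = 0.000585). Those values were above 97.2% and 91.9% of the genes tested, whose median ICC was 0.199. Glul passed as well with an ICC of 0.206 (adjusted p = 0.0291), and Cps1 did not with 0.169 (adjusted p = 0.058). So 3 of 4 members passed, where 54.7% of all genes tested did, a share close to the background. A smooth curve of the title number was in this fit as a covariate.

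Cps1 and Glul were the members whose resemblance depended on the fit. With the 22 libraries left out in which the fewest genes were above 0, Glul no longer passed (ICC 0.127, adjusted p = 0.184) and Cps1 stood at 0.076 (adjusted p = 0.306). Fewer genes passed there in general, 3215 of 12234 against 6686 with all libraries, and the median ICC over genes was 0.131. The ICC of Glul was above 48.9% of genes there, against 52.4% with all libraries. With the first component as a covariate the ICC of Cps1 was 0.335 (adjusted p = 0.00108) and that of Glul 0.247 (adjusted p = 0.0105). Arg1 and Cyp2e1 had 0.396 and 0.458 in that fit, where 54.3% of genes passed. The median difference between sharing libraries was 0.18 for Cyp2e1 on the log2 scale, against 0.26 over all pairs of libraries. It was 0.25 against 0.30 for Arg1, 0.32 against 0.42 for Cps1 and 0.38 against 0.47 for Glul.

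**Figure D5:**
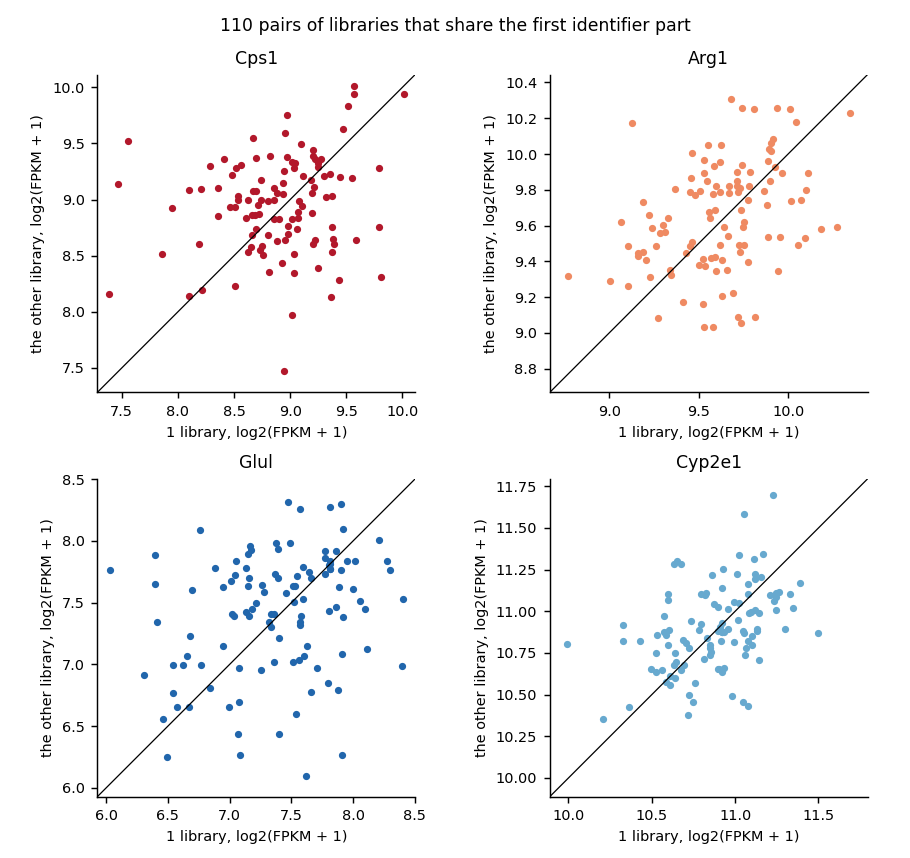
Level of each member, as log2(FPKM + 1), in 1 library against the other for the 110 pairs with a shared first identifier part. The line marks equal levels. In log2 units, points lie closest to the line for Cyp2e1 and Arg1, whose ICCs were 0.461 and 0.377. These members also differed least over all pairs of libraries.

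Over the title number, Glul fell and the others did not pass. Its slope was -0.07 (SE 0.02) on the log2 scale per 100 title numbers (adjusted p = 0.00791, limma over all genes), larger in size than 97.3% of slopes. The slopes were 0.02 for Cps1, -0.02 for Arg1 and -0.01 for Cyp2e1, with adjusted p = 0.445, 0.498 and 0.499. That is 1 of 4 members, where 8.18% of genes passed. Block medians of Glul were 7.45, 7.50, 7.34 and 7.40 and did not fall from block to block. With 1 library per first identifier part, the slope of Glul no longer passed (-0.07, adjusted p = 0.063). With the component as a covariate Cps1 rose by 0.03 per 100 title numbers (SE 0.01, adjusted p = 0.0138), where 17.6% of genes passed.

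The genes most like the members are known here by ID alone. By r over the 430 libraries as deposited, ENSRNOG00000048152 was the most like Cps1 (r = 0.836), and ENSRNOG00000020683 the most like Glul (r = 0.681). Many genes were close to these 2 members: 3174 had an r over 0.5 with Cps1 and 2009 with Glul. For Arg1 and Cyp2e1 the numbers were 30 and 6, with the highest r at 0.722 and 0.610. With the first component held they were 16 for Cps1, 40 for Arg1, 1 for Glul and 12 for Cyp2e1. Arg1 was among the 16 of Cps1, and Cps1 among the 40 of Arg1. No gene beside the 4 members could be named.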

How the data were processed

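Liver RNA was read from both fragment ends by Illumina sequencing, per the labels' protocols. The submitters' processing notes name STAR, Picard, featureCounts and DESeq2 but no version. For the build, annotation and strand setting: not given in the sources used here. Deposited values, taken as FPKM, have no unit in their header: within a gene and library they are whole multiples of a step. Whole gene lengths and a step per library were chosen to make the reads whole, and 100.0% of values were then whole (tolerance 0.001). As the target of that choice, this share is not a separate check. The scale equals that of FPKM from median-ratio size factors within a ratio of 1.00013. Among values of 1 to 59 reads a median of 25.5% per library were odd, fewer than even ones, so reads are not all independent and counting noise may be understated. Of 448 libraries 430 had a matching column and 18 are not analysed here. There was 1 column that matched no library, and it was not used.

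Tests used log2(FPKM + 1) of the 12234 genes with at least 1 FPKM in 10% of libraries, limma 3.58.1 in R 4.3.3 with a variance trend, and Benjamini-Hochberg adjustment over all genes (threshold 0.05). In the identifier test the title number entered as a natural spline with 4 df. Partial r come from residuals on the component. The fits on the title number, on the level of Cps1 and on the identifier were tried on simulated reads with independent noise. The fits on depth, with the component held and with limma-voom were not. Alternatives were other pseudocounts, scalings, filters, normal scores, covariates, limma-voom on the rebuilt reads and left-out libraries. The fits on 1 library per identifier and the alternatives to the fit with the component held were chosen after the data were seen. The members and lists were chosen with earlier results of these data known. The genes to be named were the members and, with no symbols, the ID most like Cps1 and the ID most like Glul. Of the 16796 IDs 0 could be matched to a symbol in the reference table, so the lists for nitrogen genes, zones and cell types were not run, and hepatocyte markers were not checked.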

Additional observations from a re-analysis of the deposited data

How the results depend on the processing

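With a pseudocount of 5 or of 0.5, without a filter, with a minimum of 10 FPKM, on normal scores and limma-voom, each run where it applies, the results kept their direction and side of the threshold, except that the ICC of Cps1 passed on normal scores (0.188). On normal scores 10498 of 12234 genes passed the identifier test, against 6686 in the main fit. Mean levels moved by less than 1 SD under each alternative run. Partial r with the component held was 0.583 to 0.713 for Cps1 with Arg1 and 0.447 to 0.487 for Glul with Cyp2e1 over 7 alternatives. That of Cps1 with Glul turned to 0.013 with upper quartile rescaling and to 0.045 with 5 components. Equal totals per library changed most. The SDs became 0.611 (Cps1), 0.343 (Arg1), 0.642 (Glul) and 0.297 (Cyp2e1), and r with the component 0.882, 0.303, 0.791 and 0.441 in the same order. Under it r with depth turned to 0.378 (Arg1) and 0.281 (Cyp2e1), and Arg1 with Glul turned to 0.224. Cps1 with Cyp2e1 then passed at 0.523, and the ICC of Cps1 at 0.187, where 7726 of 12234 genes passed the identifier test. Upper quartile rescaling gave SDs of 0.488 (Cps1), 0.527 (Glul) and 0.296 (Cyp2e1), r with the component of -0.181 (Arg1) and -0.074 (Cyp2e1), r with depth of -0.089 for Arg1, which no longer passed, and 0.186 for Cps1 with Cyp2e1, which then passed.

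Leaving out the 22 libraries in which the fewest genes were above 0, the SDs were 0.429 (Cps1), 0.459 (Glul) and 0.273 (Cyp2e1), and r with the component 0.753 (Cps1), -0.381 (Arg1) and 0.535 (Glul). The SDs of the ratios were 0.496 (Cps1 to Arg1), 0.465 (Glul to Cyp2e1), 0.492 (Cps1 to Cyp2e1) and 0.630 (Arg1 to Glul). The ICC of Glul, 0.127, no longer passed, where 3215 of 12234 genes passed the identifier test. Taking out the first component gave SDs of 0.291 (Cps1), 0.313 (Arg1) and 0.389 (Glul). As a covariate it turned Cps1 with Glul to -0.027, which no longer passed, and left Arg1 with Glul short of the threshold at -0.073. It let Cps1 with Cyp2e1 (0.366), the ICC of Cps1 (0.335, and 0.400 also without the 22 libraries) and its slope (0.034) pass. With 5 components these were 0.045, -0.039, 0.348, 0.330 and 0.028, and Cps1 with Glul again did not pass. Cps1 with Cyp2e1 also passed with log10 reads (0.236) or a spline of the title number (0.127) as covariate. The ICC of Cps1 passed in the identifier test without the spline (0.169), where 8023 of 12234 genes passed. With 1 library per identifier part the slope of Glul, -0.065, no longer passed, where 459 of 12234 genes passed. For these changes the cause was not tested. No paired analysis was possible because all libraries belong to 1 group. The lowest count of a member in any library was 34 reads (Glul), and the part of depth in the levels was not tested.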
